A study of Mus musculus with 9 samples.

Results

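The PYHIN genes lie in 1 cluster on mouse chromosome 1 and encode proteins that combine a pyrin domain, which binds other pyrin domains, with HIN domains, which bind DNA. A few members have only a single kind of domain. AIM2 is the best known: on meeting double-stranded DNA in the cytosol it recruits the adaptor ASC (gene Pycard) and activates caspase-1, which matures IL-1 beta and IL-18 and cleaves gasdermin D. Many of the other members were first found as genes induced by interferon, and several are nuclear proteins that alter transcription. Of 10 PYHIN genes listed for study, the 7 that have a probe set with no other gene's symbol were taken as members: Aim2, Ifi203, Ifi205, Ifi208, Ifi209, Ifi213 and Ifi214. They are 7 of 19752 genes measured on the array. The other listed genes have no such probe set: Ifi204 shares its probe set with Ifi211, for which the reference gives Mnda as a synonym, and Mndal has none of its own.

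Messenger RNA was measured in macrophages of the peritoneal cavity of male C57BL/6 mice aged 6 weeks, on 9 single-colour Affymetrix arrays. Of these, 3 were from untreated mice, 4 from mice given 10000 U of IFNa and 2 from mice given 8000 U of IFNg, both treated groups taken 2 h after subcutaneous injection. IFNa is a type I interferon, whose signal acts mainly at DNA elements called ISRE, and IFNg is the type II interferon, whose signal acts mainly at elements called GAS. The 2 doses differ in units and in the interferon, so a comparison of IFNa with IFNg holds for these doses and this time. No group injected with vehicle alone was analysed here. The labels give F4/80+ ICAM2+ for the sorted cells of the treated groups and F4/80+ alone for the untreated group, so a difference in the gate cannot be told apart from the treatment. Nothing in the labels says that the arrays of a group came from separate mice, so p-values measure the spread between these samples, which may be technical. The 2 IFNg arrays and the number of arrays in all limit the precision.

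The sorted cells carried the transcripts that define resident peritoneal macrophages. Over the 9 arrays Adgre1, which encodes F4/80, lay between 7782 and 9125 intensity units, Icam2 between 2489 and 3873, and Timd4 between 5354 and 7381. The summed intensity of 13 markers of the large resident macrophage ran from 100156 to 105418 in untreated arrays, from 96993 to 101508 after IFNa and from 95104 to 99437 after IFNg. Of these 13 Gata6, the transcription factor gene that marks these cells, was lower after both interferons (log2 -1.05 and -1.16). Of 13 markers of small macrophages, monocytes and dendritic cells Plac8 was higher (1.00) and Nr4a1 lower (-0.87) after IFNa. The sum of this list ran from 8120 to 9552 untreated, from 7967 to 10066 after IFNa and from 9354 to 9557 after IFNg. Its brightest genes were Retnla and Cd209a, at a mean log2 of 12.27 and 10.27 untreated. No gene of the marker lists for B cells (9 measured), T and NK cells (11), mast cells (8) or neutrophils and eosinophils (12) passed in any comparison. The summed intensity of the B cell list ran from 1061 to 1338 in untreated arrays, from 882 to 2457 after IFNa and from 886 to 954 after IFNg, and that of the mast cell list from 1214 to 1618, from 1476 to 3145 and from 1513 to 1598. The brightest gene of the mast cell list was Hdc, at a mean log2 of 9.85 untreated and 10.47 after IFNa. Next was Tpsb2, at 7.09 and 6.78. After IFNa Hdc changed by 0.62 and Ms4a2 by 0.05, while Cpa3, Tpsb2, Mcpt4, Cma1, Kit and Fcer1a changed by -0.76 to -0.03. The sums of the T and NK cell list (707 to 1025 over all arrays) and of the neutrophil and eosinophil list (864 to 1160) overlapped between the groups. None of the defining markers is at 0 on an array, where background gives a value: Cd79a of B cells lay between 85.9 and 312, Cd3e of T cells between 124 and 219, Cpa3 of mast cells between 35.0 and 124 and S100a8 of neutrophils between 59.2 and 71.5. The part of other cells in the results was not tested. Median intensity differed little between arrays, from 162 to 178. Untreated replicate 1 and IFNa replicate 4 stood apart by a narrower spread of values. Their upper and lower quartiles differed by log2 2.27 and 2.16, against 2.68 to 3.03 in the other 7. Member calls that changed without both are given with and without them, as are some changes from untreated.

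Most genes of the cluster with a listed promoter share the letters of an ISRE core. Each promoter window was the 250 bases before a gene's start in RefSeq (GRCm38.p6), read on both strands for a core of the ISRE (GAAA, then 2 bases of any kind, then GAAA) and for the GAS palindrome TTCNNNGAA. The ISRE letters were found for 5 of the 7 members, Ifi203, Ifi205, Ifi208, Ifi213 and Ifi214, against 2.98% of the 32851 windows in the table. The GAS letters were in 0 of the 7, against 7.02% of all windows. No match of one motif overlapped one of the other. The 40 bases around the element are shown because most of the family keeps them in recognisable form. They are printed 5′ to 3′ on the gene's strand, with capitals for the 10 letters at the position of the element.
Ifi213: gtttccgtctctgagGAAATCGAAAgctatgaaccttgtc
Ifi208: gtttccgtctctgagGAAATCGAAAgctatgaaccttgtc
Ifi214: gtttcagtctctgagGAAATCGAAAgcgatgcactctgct
Ifi209: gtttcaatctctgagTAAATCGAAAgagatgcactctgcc
Ifi203: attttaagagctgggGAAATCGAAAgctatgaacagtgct
Ifi205: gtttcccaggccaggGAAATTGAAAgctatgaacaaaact

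These windows lie at chr1:173599321-173599360 for Ifi213, chr1:173536012-173536051 for Ifi214, chr1:173942503-173942542 for Ifi203 and chr1:174031865-174031904 for Ifi205, all on the minus strand. They lie at chr1:173673592-173673631 for Ifi208 and chr1:173630765-173630804 for Ifi209, on the plus strand. The first capital stands 73 bases before the start of Ifi213, 58 before that of Ifi208, 79 before those of Ifi214 and Ifi209, 35 before that of Ifi203 and 134 before that of Ifi205. A second listed start of Ifi203 has no match. Ifi208 and Ifi213 were identical over all 40 bases. Set against the Ifi213 window without gaps, Ifi214 matched at 33 of 40 bases, Ifi209 at 31, Ifi203 at 28 and Ifi205 at 26. Counting from 1 at the first capital, Ifi209 differed within the element by G1T, which removes the match to the searched letters, and Ifi205 by C6T, at a position where any base is allowed. The best stretch of the Aim2 promoter matched at 19 bases, which 48.7% of all promoters in the table reach. Among 32837 promoters outside the family the highest match was 25 of 40, and 9 genes of the cluster had a promoter above it. The genes are paralogues, so their promoters are not independent of each other.

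**Figure D1:**
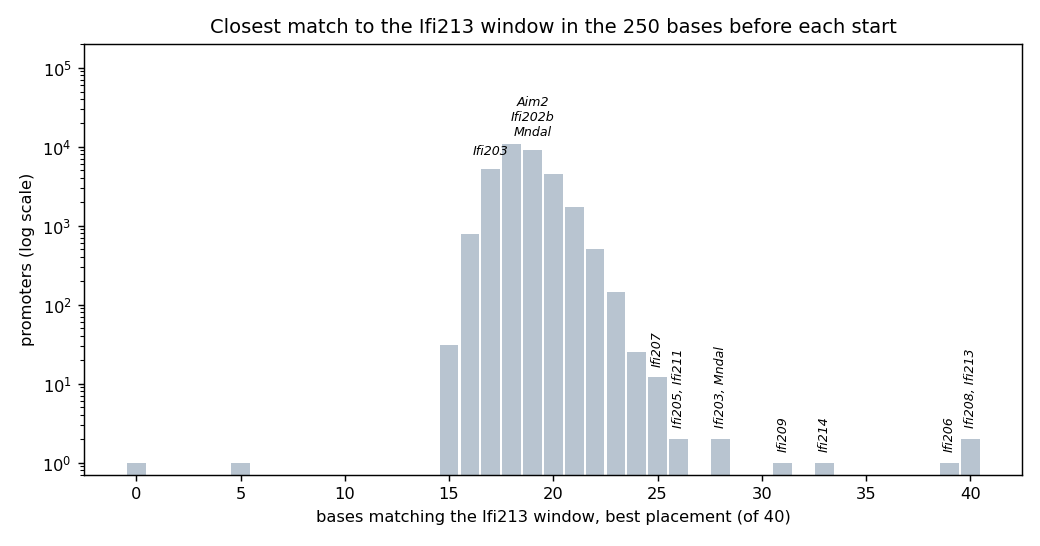
Best ungapped match of each promoter in the RefSeq table to the 40-base window of Ifi213 (x axis, matching bases of 40; y axis, number of promoters on a log scale), with PYHIN genes marked by name. Ifi208, Ifi214, Ifi209, Ifi203 and Ifi205 match at 26 to 40 bases, above the highest promoter outside the family at 25, while Aim2 at 19 lies among the bulk; the few promoters near 0 are largely unread bases.

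After IFNa each of the 7 members rose. The changes ran from log2 1.13 for Aim2 to 5.23 for Ifi213, with a median of 3.85 against -0.02 over all genes. All 7 passed limma's moderated test at an adjusted p under 0.05, Benjamini-Hochberg over all genes, and the background of genes called higher was 1.79%. In each the 4 IFNa arrays lay above the 3 untreated ones, as in 3.68% of all genes. After IFNg 5 of the 7 rose, against 1.24% of all genes, with a median of 2.08 against -0.06. Aim2 and Ifi214 did not pass. Compared directly, 3 members were higher after IFNa than after IFNg, Ifi208, Ifi213 and Ifi214, against 0.44% of all genes, and none passed in the other direction. Over all genes 0.856%, 0.111% and 0.537% were called lower in the 3 comparisons, in that order. The member median of that difference was 1.68, against 0.03 over all genes.

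**Figure D2:**
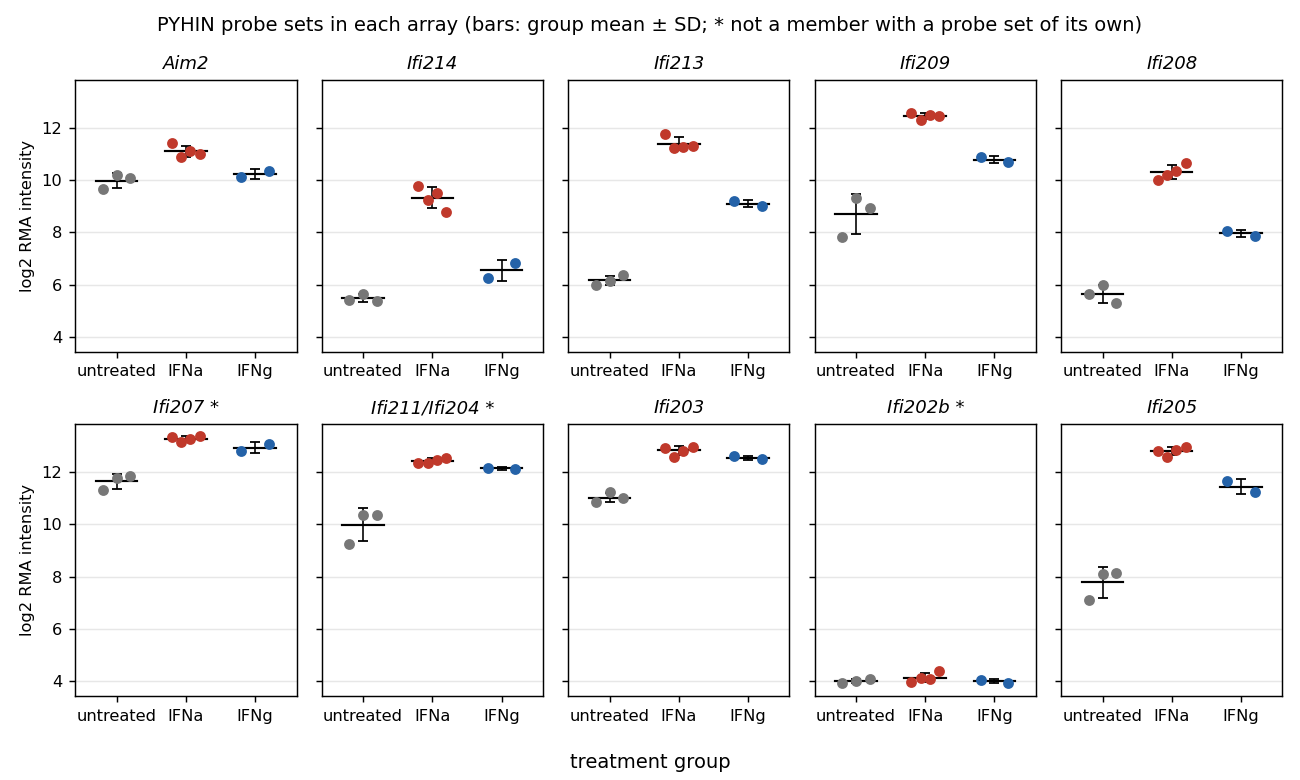
Log2 intensity of each PYHIN probe set (y axis) on every array, by treatment group (x axis: 3 untreated, 4 IFNa and 2 IFNg arrays); points are arrays and bars are group means ± SD, and an asterisk marks probe sets outside the 7 members. In all 7 members the IFNa arrays lie above the untreated ones. The IFNg arrays lie between for Ifi205, Ifi208, Ifi209, Ifi213 and Ifi214, and 1 of the 2 lies within the untreated range for Aim2.

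Aim2 encodes the DNA sensor of the inflammasome and was above the 5th percentile of every array at rest. Its intensity was 801, 1162 and 1094 in the untreated arrays, 2721, 1906, 2197 and 2052 after IFNa, and 1099 and 1320 after IFNg. The IFNa arrays were all above the rest, and the lower IFNg array lay within the untreated range. Aim2 rose after IFNa by log2 1.13 ± 0.17 (SE, 2.19-fold, limma adjusted p = 0.00595), the smallest rise of the 7. After IFNg its difference was 0.26 ± 0.21, with a 95% interval from -0.20 to 0.72 (adjusted p = 0.754), so a rise of the size seen after IFNa lay outside the interval. The direct difference of IFNa over IFNg was 0.87 (95% interval 0.43 to 1.30, adjusted p = 0.0979). Without both narrow arrays it was 0.90 and passed (adjusted p = 0.0235). The changes of Aim2 from untreated were then 1.00 after IFNa and 0.10 after IFNg.

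Ifi203 and Ifi205 encode nuclear members of the family, and the product of Ifi205 has been reported to act on transcription of Pycard. Ifi203 gave 1867, 2387 and 2031 untreated, 7823, 6174, 7145 and 8035 after IFNa, and 6193 and 5762 after IFNg. Both interferons placed every array above the untreated range, and the IFNa and IFNg arrays overlapped, since IFNg replicate 1 exceeded IFNa replicate 2. The rise was log2 1.80 ± 0.13 after IFNa (3.48-fold, limma adjusted p = 5.47e-05) and 1.52 ± 0.16 after IFNg (2.87-fold, 0.00121). The direct difference was 0.28, with a 95% interval from -0.06 to 0.62 (adjusted p = 0.802), so a difference as large as that of Ifi208 lay outside it. Ifi205 gave 138, 273 and 281 untreated, 7247, 6169, 7262 and 7918 after IFNa, and 3225 and 2414 after IFNg. None of the 3 groups overlapped. It rose by log2 5.02 ± 0.24 after IFNa (32.4-fold, limma adjusted p = 3.61e-06) and by 3.67 ± 0.29 after IFNg (12.7-fold, 2.03e-04), the largest rise among the members after IFNg. Its direct difference of 1.35 (0.73 to 1.97) did not pass (adjusted p = 0.0619), but did without both narrow arrays (1.30, adjusted p = 0.00259). The rises of Ifi205 were then 4.63 after IFNa and 3.33 after IFNg.

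Ifi208 and Ifi213, whose promoter windows are identical, both rose after each interferon and were both higher after IFNa than after IFNg. Ifi213 gave 63.1, 71.3 and 81.6 untreated, 3506, 2403, 2457 and 2526 after IFNa, and 589.7 and 512 after IFNg. Ifi208 gave 49.6, 64.0 and 39.3 untreated, 1026, 1187, 1297 and 1631 after IFNa, and 266 and 233 after IFNg. In both genes the groups were fully separate, in the order untreated, IFNg, IFNa. Ifi213 rose by log2 5.23 ± 0.16 after IFNa (37.6-fold, limma adjusted p = 2.45e-07), the 7th largest estimate of all genes, and by 2.94 ± 0.19 after IFNg (7.67-fold, 6.99e-05). Ifi208 rose by 4.66 ± 0.20 after IFNa (25.4-fold, limma adjusted p = 1.70e-06) and by 2.32 ± 0.24 after IFNg (4.98-fold, 9.60e-04). The direct difference passed in both: 2.29 for Ifi213 (1.88 to 2.70, 4.90-fold, adjusted p = 3.46e-04) and 2.35 for Ifi208 (1.85 to 2.85, 5.10-fold, 9.05e-04). Without both narrow arrays these were 2.32 and 2.23. At rest both genes lay above the 5th percentile of each untreated array, 24.1 to 27.9, but near the level of S100a8 (59.2 to 71.5), a neutrophil marker, so neither is shown to be above background there and the sizes of their rises from rest are not exact.

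Among the members, Ifi209 and Ifi214 have the windows next closest to theirs, with 31 and 33 matching bases of 40. Ifi206, a gene of the cluster without a probe set, matched at 39. Ifi209, for which the reference gives Pyhin1 as a synonym, gave 229, 636 and 495 untreated, 6147, 5099, 5702 and 5685 after IFNa, and 1890 and 1646 after IFNg. The groups were separate, and untreated replicate 1 was well below the other untreated arrays. Ifi209 rose by log2 3.76 ± 0.29 after IFNa (13.6-fold, limma adjusted p = 6.21e-05) and by 2.08 ± 0.34 after IFNg (4.24-fold, 0.0171). The IFNg call was lost without either IFNg array, in a fit of only the 2 groups and with the replicate number of the sample descriptions as a block. Its direct difference was 1.68 (0.95 to 2.41), with an adjusted p of 0.0512, and of 7.77e-04 without both narrow arrays. The rises of Ifi209 were then 3.33 after IFNa and 1.65 after IFNg.

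Ifi214 had an intensity of 42.3, 50.3 and 41.7 untreated, 875, 609, 733 and 443 after IFNa, and 76.5 and 114 after IFNg. Both IFNg arrays lay above the untreated ones and far below any IFNa array. The untreated values lay below those of S100a8 and the IFNg values little above them, so the sizes of its changes, and its place in any order of size, are not exact. Ifi214 rose by log2 3.85 ± 0.23 after IFNa (14.5-fold, limma adjusted p = 1.36e-05). After IFNg the difference of 1.07 ± 0.28 did not pass (adjusted p = 0.156), although it did without IFNa replicate 4 (adjusted p = 0.0422), under quantile normalization and with array weights. It was higher after IFNa than after IFNg by 2.79 (2.20 to 3.38, 6.91-fold, limma adjusted p = 8.27e-04).

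The members thus differed in how far IFNa exceeded IFNg. As estimated, the direct difference was 2.79 for Ifi214, 2.35 for Ifi208, 2.29 for Ifi213, 1.68 for Ifi209, 1.35 for Ifi205, 0.87 for Aim2 and 0.28 for Ifi203. The intervals of Ifi214, Ifi208 and Ifi213 overlapped widely, and that of Ifi203 overlapped none of the 3. The differences between genes were not tested. The arrays were separate in 6 of 7 members, all but Ifi203, against 12.8% of all genes, and those of IFNg and untreated mice in 6 of 7, all but Aim2, against 12.3%. The 4 members with the longest match to the Ifi213 window, itself included, were the 4 with the largest estimated direct difference. The match of Ifi213 to itself is fixed by the choice of window, and Ifi208 has an identical window. The ranking also needs Ifi209 above Ifi205, whose intervals overlapped (0.95 to 2.41 and 0.73 to 1.97). Neither passed in the fit reported. Ifi209 lacks the searched ISRE letters, while Ifi203 has the same element letters as Ifi213 and a difference of 0.28. The ranking was described after the values were seen, and it rests on 7 genes of shared descent. Whether the window bears on the difference was not tested.

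**Figure D3:**
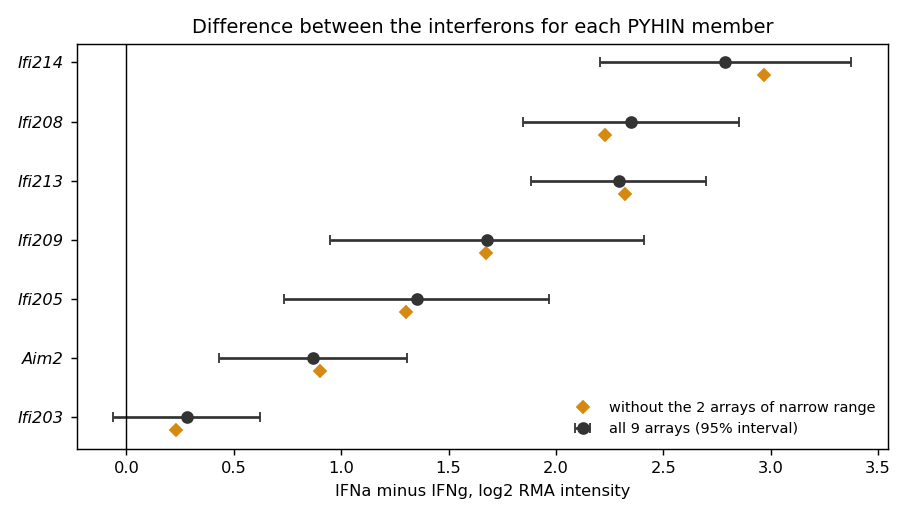
IFNa minus IFNg on the log2 scale (x axis) for each of the 7 members (y axis), as the limma estimate over all 9 arrays with its 95% interval, and as diamonds without the 2 arrays of narrow range. Ifi214, Ifi208 and Ifi213 lie between 2.29 and 2.79, and the interval of Ifi203 is the single one that includes 0.

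The measured genes of the cluster outside the member list moved in part with it. Ifi207, a further pyrin and HIN gene with its own probe set, gave 2549, 3501 and 3665 untreated, 10295, 9210, 9732 and 10585 after IFNa, and 7096 and 8635 after IFNg. Both treated groups lay above the untreated one. It rose by log2 1.64 ± 0.15 after IFNa (limma adjusted p = 1.87e-04) and by 1.29 ± 0.18 after IFNg (0.00645), and its direct difference of 0.34 (-0.03 to 0.72) did not pass (0.784). The IFNg call of Ifi207 was lost without IFNg replicate 2 and in the fit of untreated and IFNg arrays alone.

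The probe set shared by Ifi211 and Ifi204, the latter the mouse gene often set beside human IFI16, gave 608, 1316 and 1312 untreated, 5276, 5198, 5705 and 6007 after IFNa, and 4600 and 4405 after IFNg. No treated array overlapped an untreated one. The change was 2.45 ± 0.25 after IFNa (limma adjusted p = 3.83e-04) and 2.15 ± 0.29 after IFNg (0.0061), with a direct difference of 0.30 (-0.32 to 0.92, 0.801), and it cannot be assigned to either gene. Without both narrow arrays the changes were 2.04 and 1.78. Ifi202b, which encodes an inhibitor of AIM2 that lacks a pyrin domain, gave 15.2 to 20.6 over the 9 arrays, below the 5th percentile of every array, so no change is given for it. Its promoter was the single one with the GAS letters among those listed for the cluster, where Ifi204 has none. The sequences of the probes were not used here, so signal passed between near-identical paralogues could not be told apart from each gene's own.

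Genes beside the cluster did not pass. The 6 measured genes on each side in the order of the reference, among them Fcer1a, Ackr1 and Cadm3 before it and olfactory receptor genes on both sides, had changes from -0.09 to 0.25 after IFNa and from -0.46 to 0.03 after IFNg. By limma 0 of the 12 were called in any comparison, with smallest adjusted p of 0.659, 0.719 and 0.802 in the order IFNa, IFNg and direct. Whether these cells express the 12 genes was not examined, and Fcer1a was dim, at a mean log2 of 4.87 untreated. Flat values of genes that are not expressed would not show where the response ends along the chromosome. Within the cluster the order along the chromosome was Aim2, Ifi214, Ifi213, Ifi209, Ifi208, Ifi207, Ifi211 with Ifi204, Ifi203, Ifi202b and Ifi205. The members with a large IFNa change thus stood between Aim2 and Ifi207 and, in Ifi205, at the far end.

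**Figure D4:**
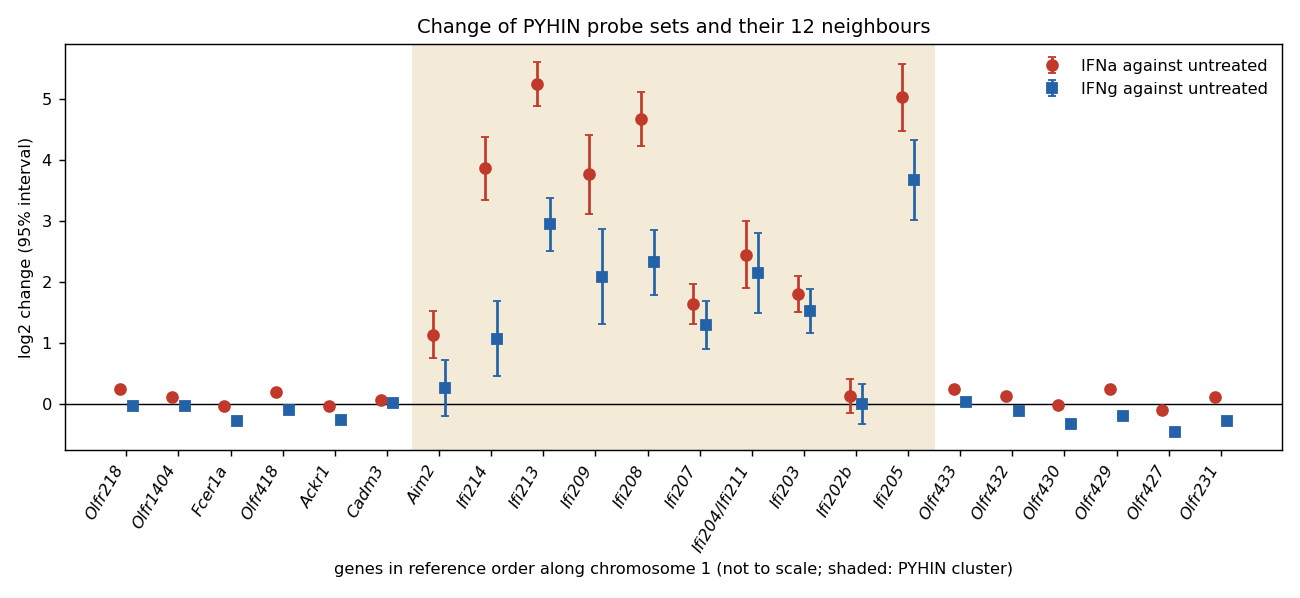
Log2 change (y axis) of the PYHIN probe sets and of the 6 measured genes on each side, in the order of the RefSeq table (x axis, rank order and not distance), after IFNa and after IFNg; bars, drawn for the PYHIN probe sets, are 95% intervals. The 12 neighbours lie between -0.46 and 0.25, and the 7 members between 0.26 and 5.23.

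Some genes that act in the same pathways as the PYHIN proteins rose as well. Of 23 measured genes of cytosolic DNA sensing and the STING pathway 5 rose after IFNa and 5 after IFNg, against 1.79% and 1.24% of all genes, with medians of 0.06 and 0.24 against -0.02 and -0.06. Zbp1, a sensor of Z-form nucleic acid, rose by 2.76 after IFNa (limma adjusted p = 3.66e-05) and 2.49 after IFNg (5.32e-04). Irf7, a transcription factor for type I interferon genes, rose by 3.18 and 1.81 (adjusted p = 1.65e-04 and 0.0333), and the DNA exonuclease gene Trex1 by 1.32 and 1.45 (0.00517 and 0.0152). Samhd1, which encodes an enzyme that breaks down nucleotides, rose by 1.07 and 1.34. Cgas, the DNA sensor that makes cGAMP, rose after IFNa by 1.44 (limma adjusted p = 0.00199), and its 0.69 after IFNg did not pass (0.330). That IFNg change passed under array weights and with the title number as a block. The direct difference of Cgas was 0.75 and did not pass (limma adjusted p = 0.229). Sting1, the receptor of cGAMP, showed the reverse order: 0.27 after IFNa (0.877) and a rise of 2.16 after IFNg (0.0142), with a direct difference of -1.89 (0.0263). The IFNg calls of Irf7, Samhd1, Sting1 and Trex1 were lost in the fit of untreated and IFNg arrays alone and without either IFNg array, where 1 of the 23 stayed called. That of Irf7 was also lost without untreated replicate 2, without IFNa replicate 1, 2 or 3, under median centring and with the description number as a block. The direct call of Sting1 was lost without any 1 of 6 arrays.

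Among genes of the inflammasome and pyroptosis Casp1 and Casp4 rose, and the caspase gene Casp8, named after its values were seen (0.52 and 0.12, limma adjusted p = 0.348 and 0.884), and the adaptor and pore genes did not pass. Of 18 measured genes 4 rose after IFNa and 3 after IFNg, against 1.79% and 1.24% of all genes, with medians of 0.15 and 0.20 against -0.02 and -0.06. Casp1 rose by 1.31 and 1.34 (limma adjusted p = 0.00602 and 0.0247) and Casp4, whose product senses lipopolysaccharide, by 1.62 and 1.87 (0.0102 and 0.02). Il18, a substrate of caspase-1, rose by 2.24 after IFNa (0.00172) and had 1.34 after IFNg (0.134), and Il18bp, which encodes a decoy for IL-18, rose by 1.13 and 1.62. The adaptor gene Pycard gave 0.17 and 0.33 (0.753 and 0.621), the pore gene Gsdmd 0.19 and 0.31 (0.679 and 0.639) and the cytokine gene Il1b -0.17 and -0.40 (0.872 and 0.689), and none of these passed. The IFNg calls of Casp1 and Casp4 were lost without either IFNg array and in the fit of untreated and IFNg arrays alone. That of Casp1 was also lost without untreated replicate 2 or IFNa replicate 1 or 2, and that of Casp4 with the description number as a block.

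Among 11 measured genes of interferon receptors, kinases and factors 3 rose after each interferon, against 1.79% and 1.24% of all genes, with medians of 0.02 and 0.33. Stat2, a subunit of the factor that binds the ISRE, rose by 3.07 after IFNa and 2.50 after IFNg (limma adjusted p = 3.68e-06 and 1.21e-04), and Irf1, whose product binds related letters, by 2.39 and 3.50 (1.65e-04 and 1.25e-04). Jak2, which encodes a kinase that associates with receptors, rose after IFNa by 1.10 (limma adjusted p = 0.0318). That call was lost on leaving out any 1 of 6 arrays, under median centring and in the fit of untreated and IFNa arrays alone. Irf8, a myeloid transcription factor gene, rose after IFNg by 1.98 (5.32e-04) and gave -0.09 after IFNa (0.930), with a direct difference of -2.08 (limma adjusted p = 5.06e-04).

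**Figure D5:**
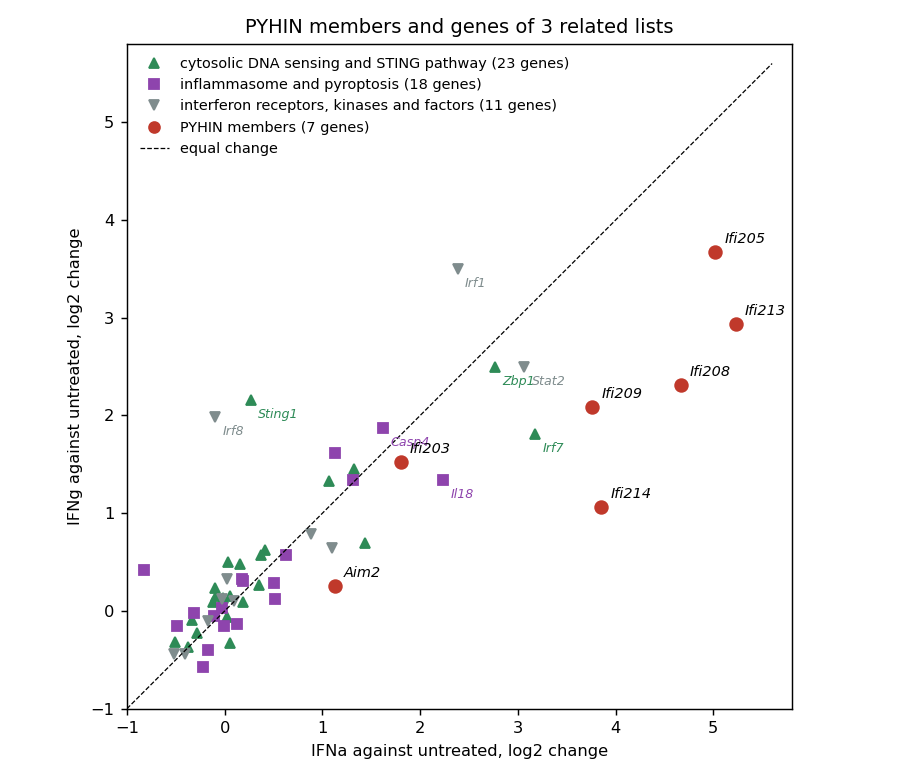
Log2 change after IFNa (x axis) and after IFNg (y axis) of the 7 PYHIN members and of the measured genes of the 3 related lists; the line marks equal change, and both axes use the same untreated arrays. Ifi214 (3.85 and 1.07) lies far below the line and Sting1 (0.27 and 2.16) above it.

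The gene nearest in pattern was sought as the smallest root mean square difference, over the 9 arrays, of log2 values each centred on the gene's untreated mean. For the mean of Ifi208 and Ifi213, the members called in all 3 comparisons, the nearest genes outside the family were Usp18, which encodes a brake on type I interferon signalling (0.396), the antiviral GTPase gene Mx1 (0.642), the nucleotide kinase gene Cmpk2 (0.662), Mx2 (0.685), Tnfsf10, which encodes the death ligand TRAIL (0.884), and Ifit1 (0.963). Usp18 changed by log2 4.67 and 2.40 after IFNa and IFNg, against 4.95 and 2.63 for that mean. Mx1, Cmpk2, Mx2, Tnfsf10 and Ifit1 changed by 3.72 to 6.12 after IFNa and by only 1.38 to 2.02 after IFNg. The IFNg changes of Mx1 and Mx2 did not pass (limma adjusted p = 0.0531 and 0.0502), but each did in 7 of 22 alternatives. Those of Cmpk2 and Ifit1 passed (limma adjusted p = 0.0300 and 0.0333), but the calls were lost in 8 and 10 of 22 alternatives. That of Usp18 was lost in 3. The measure counts 4 IFNa arrays and 2 IFNg arrays. Taken singly, Usp18 was also nearest to Ifi205 (0.660), Ifi208 (0.437) and Ifi213 (0.549). The nearest gene was Ms4a4c for Ifi214 (0.443), Herc6 for Ifi209 (0.312), Il15ra for Ifi203 (0.182) and Usp25 for Aim2 (0.119). The small value for Aim2 goes with its small change, since genes that move little differ little.

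Within a group, 2 arrays lay below the group's mean in every member. Untreated replicate 1 was below its group's mean in 7 of 7 members, with a median deviation of log2 -0.18, and IFNa replicate 2 in 7 of 7 with a median deviation of -0.16, while the median of all genes deviated by 0.02 and 0.00035. Untreated replicate 1 is an array of narrow range. Its member deviations ran from -0.86 to -0.01, and in Ifi208 and Ifi214 it lay above untreated replicate 3. What placed either array below the mean was not tested.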

How the data were processed

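The deposited values are intensity values on a linear scale, 1 per probe set and array (24922 by 9), and per the submitters' processing notes the authors made them by RMA with Affymetrix tools. Versions and which arrays were normalized together are not given in the sources used here. Log2 of the intensity was taken. Genes came from the platform annotation: 21425 probe sets had 1 symbol, 1399 several and 2098 none. Symbols were updated through Entrez IDs to RefSeq (19677 of 19752 genes), and the brightest probe set with 1 symbol stood for its gene. One limma 3.58.1 model (R 4.3.3) held 3 group means over 9 arrays (6 residual and 3.62 prior degrees of freedom), with two-sided p-values adjusted by Benjamini-Hochberg over 19752 genes, a threshold of 0.05 and no filter on dim genes.

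Errors of changes are standard errors with n = 3, 4 and 2 arrays (untreated, IFNa, IFNg), and intervals are 95%. The gene lists, the members and the tests were chosen with earlier results of these data known. Named were all members, up to 6 called genes of smallest p per related list and comparison, 6 genes fixed by name (Pycard, Casp1, Gsdmd, Il1b, Cgas, Sting1), the 6 measured genes on each side of the cluster and the nearest genes in pattern. Marker genes were listed for 6 kinds of cell. Tested on simulated 2-fold changes in 200 of 19752 genes, the model recovered 67.0%, 50.5% and 54.0% for IFNa, IFNg and IFNa against IFNg. In that order it called 145, 108 and 120 genes, of which 11, 7 and 12 were false. Promoters were searched in Python 3.11.15, and 24 alternatives were tried.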

Additional observations from a re-analysis of the deposited data

Results flagged for a closer look

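In 1 of the 10 PYHIN probe sets whose 4 IFNa arrays were examined for a value far from the others, 1 array stood apart. Ifi213 reached log2 11.78 in IFNa replicate 1, and the nearest array was at 11.30, a gap of 0.868 of the group's range, above Dixon's 95% critical value for 4 samples. Chance sets apart about 1 in 20 such groups. All 4 arrays lay far above the untreated level, and leaving out IFNa replicate 1 did not end a call of Ifi213.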

How the results depend on the processing

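Of the 21 member changes (7 genes, 3 comparisons), 462 values under alternatives were computed: 436 kept direction and side of the threshold, 4 lost a call, 22 gained one and 0 turned sign. The number of members called stayed at 7 after IFNa and ran from 4 to 6 after IFNg. The direct comparison, 3 in the fit reported, gave 5 without the dimmest 30% or 50% of genes, under quantile normalization and when IFNa and IFNg arrays were fitted alone, and 6 under array weights and without both narrow arrays. Leaving out 1 array gave 3 to 6. Whether replicate numbers pair the samples could not be told from correlations between arrays. Same-numbered samples had correlations of -0.21 to 0.60 by title and -0.44 to 0.11 by description. The 2 narrow arrays, untreated replicate 1 and IFNa replicate 4, have different numbers and reached 0.61. The 2 IFNg arrays gave values of equal size and opposite sign, such as 0.12 and -0.12 with untreated replicate 1. With the number as a block the members called were 7, 5 and 3 (title) and 7, 4 and 3 (description), and the description block ended the IFNg calls of Ifi209, Casp4 and Irf7. Sting1 after IFNa (0.27) turned to -0.054 under array weights, -0.23 without both narrow arrays and -0.0396 without untreated replicate 1, with 0.45 as the highest value on leaving out 1 array. Irf8 after IFNa turned to 0.019 under the description block and 0.031 without untreated replicate 2, with -0.28 as the lowest on leaving out 1 array. The causes were not tested. Counts over all genes moved most under array weights: higher calls ran from 247 to 2333 after IFNa, from 79 to 2735 after IFNg and from 21 to 614 in the direct comparison, and lower calls from 26 to 3240, 1 to 3432 and 21 to 1031. Quantile normalization gave 500 higher and 421 lower after IFNa, 276 and 80 after IFNg and 160 and 116 directly, against 354 and 169, 245 and 22, and 87 and 106.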
